A study of Vigna unguiculata subsp. sesquipedalis with 24 samples.

Results

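The 200 unigenes described here were much lower in droughted than in well-watered roots of both asparagus bean lines, while their level in leaves differed little between the same treatments. They were taken from the 29471 cowpea unigenes of a custom array. A unigene is a cluster of transcript sequences that is read as 1 gene, and its code begins with UP12. The unigenes were chosen by their measured drought changes and root levels. The drought change was the mean log2 intensity under drought minus that in well-watered plants, within 1 line and 1 organ. A unigene qualified when its absolute change was under 0.5 in the leaves of both lines and its mean reached at least 8 in at least 1 of the root groups, which 10879 unigenes did. These were ordered by the larger, that is the less negative, of their 2 root changes. The first 200 with that value below -1 were taken from 519 such unigenes, and the rule left out 3 named unigenes.

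The plants were asparagus bean (Vigna unguiculata ssp. sesquipedalis). Line B47 is a landrace labelled anisohydric like, and line B128 is a landrace labelled isohydric like. These terms are used here as the labels give them, and water status is not part of these data. Each line was grown well-watered or had its irrigation withheld from the age of 16 days, and on day 15 of the treatment the side leaflets of the first trifoliate leaf and the roots were taken. The 2 plants of a pot were pooled for RNA, and each of the 8 groups of line, organ and treatment had 3 biological replicates, giving 24 arrays. Each line is a single genotype, so a difference between the lines is a difference between these 2 accessions. For the 6 arrays of droughted roots the free-text description names leaves whereas the source name gives root, and the source name was followed.

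Roots take up water and mineral ions through an outer surface of hairs and epidermis, and their growing zones keep loosening and rebuilding cell walls. Genes active there include secreted peroxidases that act on wall phenolics, enzymes and transporters that acquire iron and zinc, phosphatases that release phosphate from organic compounds, and lipoxygenases that make signalling oxylipins. In bulk tissue, fewer cells of a type and less RNA per cell cannot be told apart. Gene names below are the Arabidopsis or other matches that the study's own gene lists give for a unigene. A description was found there for 80 of the 200 unigenes, another 17 were listed with no description and 103 were not listed. Over the whole array 2206 unigenes had a description, so each count of described members below stands beside 80 of 2206. The lists hold genes that the study had called as drought-regulated, so counts of named genes are no independent evidence of a direction.

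The organ labels were compared with marker genes. The mean level of 27 photosynthesis unigenes, such as those for chlorophyll a/b-binding proteins, was between 9.95 and 11.7 log2 units on leaf arrays, between 7.04 and 7.45 on droughted root arrays and between 7.01 and 8.28 on well-watered root arrays. Of the 27, 18 were higher on every leaf array than on any root array, and 2 were higher on every well-watered root array than on any leaf array. The highest of the root values was on replicate 3 of B128, and the other well-watered root arrays of that line stood at 7.01 and 7.32. All 8 root markers, which are genes of iron and nitrate nutrition, were higher on every well-watered root array than on any leaf array. On droughted root arrays their mean level was 6.52 to 6.99, against 5.85 to 7.41 in leaves, so for these arrays only the leaf markers bear on the label. Of those 8 markers, 2 are among the 200 unigenes. Replicate arrays correlated with r between 0.960 and 0.994 over all unigenes.

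As a whole the 200 unigenes stood several log2 units lower on droughted than on well-watered root arrays. Their median level was 11.29, 10.77 and 10.86 on the well-watered root arrays of B47, and 7.17, 7.30 and 7.00 on its droughted root arrays. In B128 the medians were 11.67, 11.09 and 11.09 in well-watered roots and 7.39, 7.62 and 7.23 in droughted roots. The droughted and well-watered root arrays did not overlap in either line. On the 12 leaf arrays the median was between 4.80 and 5.20, whichever the treatment. The change in roots and the small change in leaves are what the unigenes were chosen for, so these values are given as a description.

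**Figure D1:**
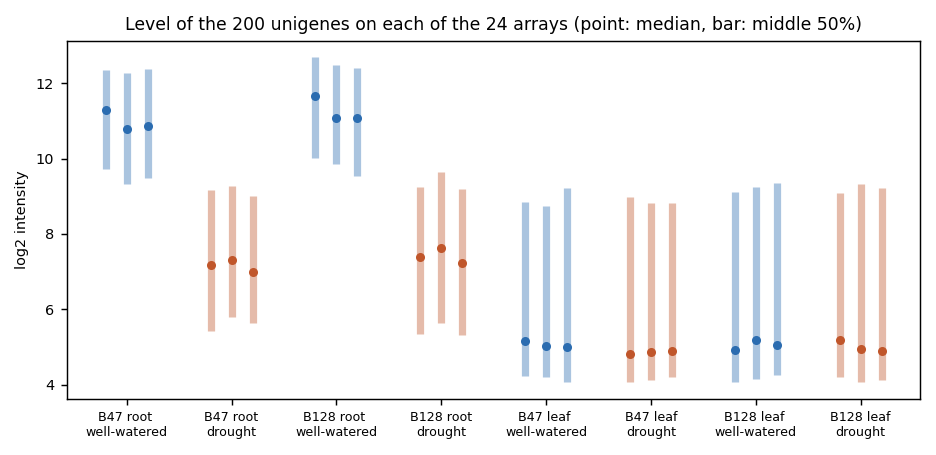
Level of the 200 unigenes on each array, in log2 intensity on the vertical axis. Points are medians over the unigenes, bars span the middle 50% of them, blue is well-watered and orange is drought. Medians lie between 10.77 and 11.67 in well-watered roots, between 7.00 and 7.62 in droughted roots, and between 4.80 and 5.20 in leaves.

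The median root change was -3.23 in B47 and -3.19 in B128, and the median leaf change was -0.07 and -0.05. A root level at least 2 log2 units lower in both lines was reached by 176 of the unigenes, at least 3 lower by 90, at least 4 lower by 53 and at least 5 lower by 24. Every droughted root array lay below every well-watered root array for 199 unigenes in B47 and 197 in B128. The same held for 24.6% and 21.9% of all unigenes. In the fit over all unigenes, with a fold threshold of 2 and a false discovery rate (FDR) of 0.01, 197 of the 200 were called lower in B47 roots and 197 in B128 roots, beside 11.6% and 11.2% of all unigenes. Since the rule used these contrasts, nothing is read from those counts. The smallest root change that was still taken was -1.87, in UP12_8666, and the first unigene outside the list, UP12_6369, had -1.86. At the leaf limit, the largest absolute change inside was 0.496, in UP12_26717. As many as 1219 unigenes were as low in both droughted roots and met the root minimum at any leaf change, and the nearest of them outside the leaf limit, UP12_9856, had a leaf change of 0.5003.

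The changes of the lines lay side by side for most of the unigenes. The difference between the B128 and the B47 root change had a median of -0.13, and it was within 1 log2 unit for 145 of the 200. The level was lower by more than 1 further unit in B128 for 37 and in B47 for 18, and by more than 2 further units in B128 for 14 and in B47 for 0. This difference is made of the values that chose the unigenes and was not tested. Among members that have a description the widest gap towards B128 was that of UP12_2663 (lipoxygenase 1), with -6.63 in B47 and -9.80 in B128. Among the same described members the widest gap towards B47 was that of UP12_2872 (apyrase 2, an enzyme that hydrolyses nucleoside triphosphates), with -5.24 in B47 and -3.29 in B128.

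**Figure D2:**
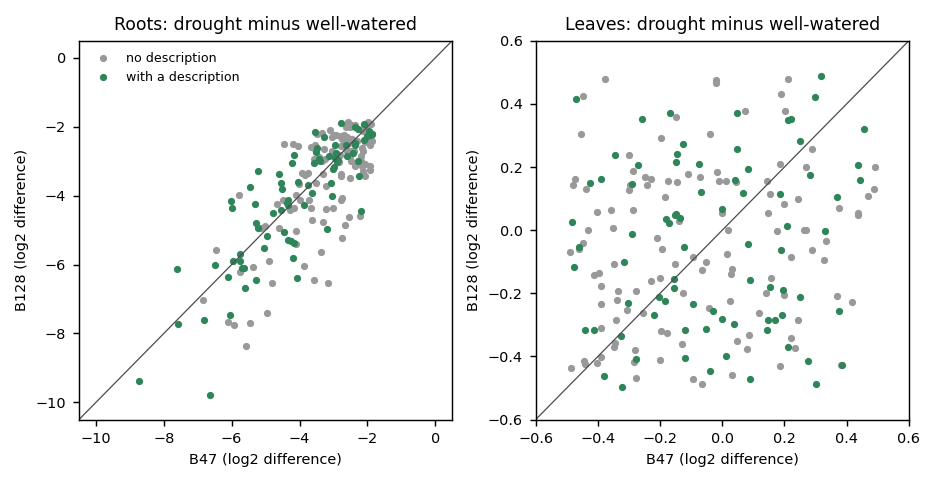
Drought minus well-watered mean log2 intensity of the 200 unigenes in B47 (horizontal) and B128 (vertical), for roots on the left and leaves on the right, on different scales. Green points have a gene description and the line marks equal change. Root changes run from -1.87 to -9.80 and leaf changes stay within 0.5 of 0, as the rule requires.

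Single arrays of B128 roots stood apart from the others of their group. Replicate 2 of droughted B128 roots was over 1 log2 unit above both other replicates for 23 of the 200 unigenes, beside 3.14% of all unigenes, and replicate 1 of well-watered B128 roots was so for 32 of the 200, beside 1.19%. Without replicate 2 of the droughted roots the median B128 change was -3.39, and all 200 stayed below -1. The count of unigenes lower by more than 2 further units in B47 was then 2. Without replicate 3 of well-watered B128 roots, which carried the higher leaf markers, the median was -3.20 and again all 200 stayed below -1. Without replicate 1 of well-watered B128 roots the median was -3.14 and all 200 stayed below -1. The count of unigenes lower by more than 2 further units was then 7 in B128 and 3 in B47. These arrays were left out after the values had been seen. The 8 yeast control entries of the array were higher by 0.31 in droughted than in well-watered roots of B47 and by 0.40 in B128, so their direction was opposite to that of the unigenes.

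Applying the rule to 2 of the 3 replicate numbers and reading the change on the arrays of the third gives a value that the choice did not use. With replicate 1, 2 or 3 left out, 200 unigenes were chosen each time, of which 136, 135 and 141 were on the list described here. On the arrays left out, their median root change in B47 was -3.39, -3.04 and -2.95. In B128 it was -3.70, -3.00 and -3.09. The corresponding median over all unigenes was between 0.08 and 0.14. Both roots were below -1 for 193, 166 and 185 of the 200. On the same arrays the absolute change was under 0.5 in the leaves of both lines for 69, 76 and 100 of the 200, beside 36.0%, 37.8% and 41.7% of all unigenes. It was under 1 in both for 146, 151 and 176. With replicate 1 or 2 left out, the share under 0.5 was close to that of all unigenes. With replicate 3 left out it was higher.

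Well-watered roots stood above leaves for most of the unigenes. The root minimum of the rule and the size of the root change both favour a high well-watered root level. The counts that follow are therefore a description, with no share over all unigenes beside them. In both lines the well-watered root was over 1 log2 unit above the leaf for 153 unigenes, with a median difference of 5.58 in B47 and 5.88 in B128. The leaf was over 1 unit above the root in both lines for 12, and the other 35 lay between. For the 153, drought brought the root to within 1 unit of the leaf in both lines for 49, while 84 remained over 1 unit above the leaf. For the 35 unigenes between, the droughted root was over 1 unit below the leaf in both lines for 31, and this was so for all 12 with the higher leaf.

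**Figure D3:**
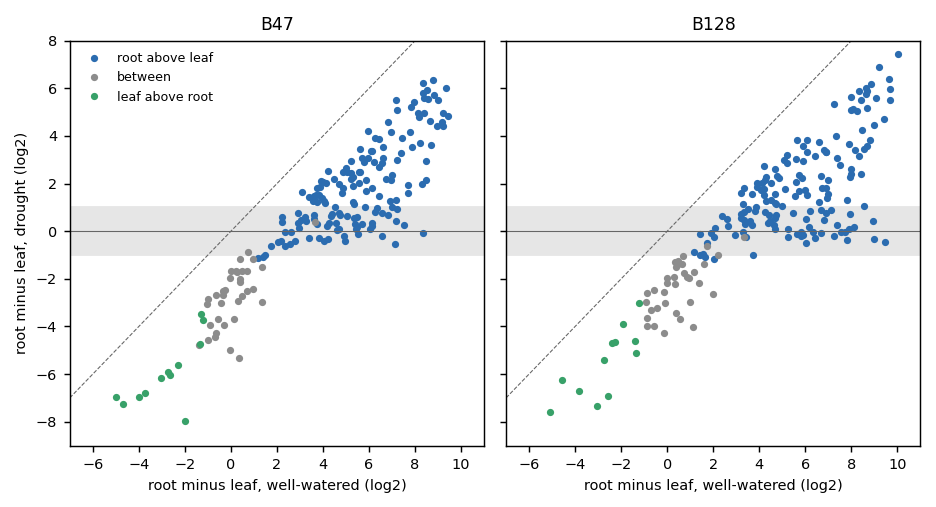
Root minus leaf mean log2 intensity of each of the 200 unigenes in well-watered plants (horizontal) and under drought (vertical), for each line. Blue marks the 153 with the well-watered root over 1 above the leaf in both lines, green the 12 with the leaf above the root and grey the other 35. The dashed line marks an equal difference under both treatments, and the band marks a root within 1 of the leaf, where 49 of the blue points lie in both lines.

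The organ difference, root minus leaf averaged over both treatments, was tested with limma over all unigenes. In B47, 145 of the 200 were called higher in roots, beside 17.3% of all unigenes and 9.97% of the 10879 that met the leaf limit and root minimum, and 32 were called lower, beside 17.4% and 12.4%. In B128 the counts were 145 higher, beside 17.7% and 9.87%, and 27 lower, beside 18% and 13.2%. The median organ difference was 2.85 in B47 and 2.93 in B128, against 0.07 and 0.05 over all unigenes. The root minimum of the rule and the size of the root change both favour a high root level, and their part in these counts was not tested.

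The level in leaves was low for most of the list. The leaf mean lay among the lowest 10% of all unigenes, under 5.54 log2 units, for 117 of the 200 (58.5%), and among the lowest 25%, under 8.14, for 143. Among the 10879 unigenes that met the leaf limit and root minimum, 2.59% were among that lowest 10%. A fall in leaves could be measured only over a short range for these unigenes, and their small leaf change is limited in that way. Droughted roots reached the same low end for part of the list, with a mean among the lowest 10% of all unigenes in that group for 48 of the 200 in B47 (under 5.57) and 49 in B128 (under 5.49). No background or detection call was used, so the root changes and the gaps between lines of these unigenes are compressed or bounded there to an unknown extent. The 57 unigenes outside the lowest 25% of leaf means had leaf means of 8.32 and above, and their median root change was -2.60 in B47 and -2.56 in B128.

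Class III peroxidases are secreted haem enzymes that oxidise phenolic compounds and take part in cross-linking and lignification of the cell wall. The list contained 6 of the 21 peroxidase unigenes with a description. All 6 were called higher in roots than in leaves in both lines, beside 145 of all 200 members in each. The rule favours a high root level, so nothing is read from this count. UP12_18178, matched to peroxidase 39, headed the list, with 12.95, 12.53 and 12.67 in well-watered B47 roots and 4.09, 4.29 and 3.54 in droughted ones. In B128 the values were 13.88, 13.27 and 13.01 against 4.12, 3.90 and 3.98. The 12 leaf arrays were at 3.79 to 4.57, and the droughted roots of both lines lay in that range apart from 1 array of B47 at 3.54. The root changes were -8.74 and -9.39, read against droughted roots at the low end of the scale. UP12_2238, a putative peroxidase, had root changes of -6.49 in B47 and -6.00 in B128, and UP12_17737, another peroxidase, had -5.70 and -6.11. For UP12_3450, matched to peroxidase 3, droughted roots remained far above leaves, at 8.87 to 9.55 in B47 against 3.37 to 3.89 in its leaves. Its organ difference of 7.29 ± 0.14 (SE, limma, 12 arrays, adjusted p = 5.2e-19) in B47 was among the 3 largest of the described members. Of all 21 peroxidase unigenes, 19 were called lower in droughted roots of each line and 0 were called higher. Over all unigenes 11.6% were called lower and 10.9% higher in B47 roots, and 11.2% and 10.5% in B128 roots. The descriptions came from lists of drought-regulated genes, so the high counts are partly built in. In leaves 3 of the 21 were called lower in B47 and 9 in B128, beside 8.18% and 8.35% of all unigenes, and 0 were called higher in either line, beside 7.86% and 6.31%.

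Genes for handling iron, zinc and other metals gave 6 of 21 described unigenes to the list. Nicotianamine synthases make the chelator that carries iron and zinc within the plant, and ORG2 is in Arabidopsis a bHLH transcription factor of the iron deficiency response. UP12_1630 (nicotianamine synthase 4) measured 12.37, 10.41 and 12.65 in well-watered B47 roots and 10.44, 10.79 and 10.13 in those of B128. Under drought it was 4.08 to 4.29 in B47 and 4.27 to 4.37 in B128, below every leaf array of B47 and close to the lowest leaf values of B128, 4.34 and 4.35. UP12_19478 (nicotianamine synthase 3) showed the same arrangement, with 10.14, 8.09 and 10.67 in B47 against 8.02, 8.39 and 7.81 in B128 when watered, and 3.38 to 4.13 in droughted roots of either line. In both synthases replicate 2 of B47 was the lowest of its group, and lay within the range of the watered B128 arrays.

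UP12_2796, matched to ORG2, had root changes of -6.11 in B47 and -6.35 in B128, and its droughted roots, at 4.75 to 5.78, stayed above the highest leaf array of 4.52. UP12_1667, matched to vacuolar iron transporter homolog 4, changed by -5.29 and -4.80. UP12_19530 and UP12_18009, both matched to PLANT CADMIUM RESISTANCE 9 and so possibly copies or parts of 1 gene, had similar changes, -4.25 and -4.18 in B47 and -5.30 and -5.38 in B128. Of the 21 described metal unigenes, 19 were called lower in droughted B47 roots and 20 in those of B128, and 0 were higher. In leaves 3 were called lower and 0 higher in B47, and 7 and 1 in B128. Over all unigenes, 11.6% were called lower and 10.9% higher for B47 roots, against 11.2% and 10.5% for B128 roots. For leaves these shares were 8.18% and 7.86% with B47, against 8.35% and 6.31% with B128. They apply equally to the counts of the groups that follow. Since descriptions came from lists of drought-regulated genes, high counts are partly built in.

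Oxygenases of the cytochrome P450 and 2-oxoglutarate families, which hydroxylate many small molecules, made up 4 of 66 described unigenes. UP12_18521, matched to cytochrome P450 71B34, was 11.71, 11.15 and 11.21 in well-watered B47 roots and 12.56, 11.14 and 11.54 in those of B128. Droughted roots were at 3.50 to 4.25 in both lines, inside the leaf range of 3.08 to 4.30. UP12_19156, matched to cytochrome P450 71B24, had droughted roots at 6.32 to 6.58 in B47 and, with no overlap, at 5.40 to 5.51 in B128, while watered roots of the lines overlapped at 13.03 to 13.53 and 12.49 to 13.74. UP12_895, a 2-oxoglutarate dioxygenase, separated the lines when watered instead. Its well-watered roots stood at 7.49, 8.46 and 8.15 in B47 and at 11.07, 8.90 and 10.51 in B128, whereas droughted roots were at 3.64 to 4.41 and 3.70 to 3.94. UP12_19958, another cytochrome P450, changed by -4.05 and -3.60. Over the whole group of 66, 35 were called lower and 6 higher in B47 roots, and 37 and 7 in B128 roots.

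Lipoxygenases add oxygen to linoleic and linolenic acid, the first step towards oxylipins, and lipases release these fatty acids from membranes. The list contained 5 of 45 described unigenes of this group. UP12_2663, matched to lipoxygenase 1, which acts at the 9 position of the fatty acid, measured 13.30, 11.99 and 11.97 in well-watered B47 roots and 5.32, 6.13 and 5.91 under drought. In B128 it measured 14.37, 13.74 and 13.32 and then 4.04, 4.10 and 3.90, so every watered B128 array was above, and every droughted one below, the corresponding B47 arrays, with the droughted B128 roots at the low end of the scale. Leaves of both lines were at 3.49 to 4.79. UP12_2133, a second lipoxygenase, differed in its leaf level, 10.14 to 12.04 over the 12 leaf arrays, and its roots went from 10.35 to 11.57 down to 7.43 to 8.06 in B47 and from 11.23 to 12.47 down to 6.27 to 7.29 in B128. UP12_8541, matched to phospholipase A1-Igamma1, changed by -5.96 and -5.89, and UP12_19385, matched to patatin-like protein 2, by -4.96 and -5.17. Of the 45, 33 were called lower and 3 higher in B47 roots, and 26 and 4 in B128 roots.

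The phosphate starvation group supplied 4 of 15 described unigenes, matched to acid phosphatases and a phosphodiesterase. The 4 differed in their organ pattern. UP12_17665 was matched to purple acid phosphatase 27, which its description gives as probably inactive. It measured 9.84, 10.17 and 10.57 in well-watered B47 roots and 11.80, 11.26 and 11.34 in those of B128. Droughted roots were at 5.36 to 5.83 in B47 and at 7.10 to 8.21 in B128. B128 roots were thus above B47 roots under each treatment without overlap. UP12_20556, an acid phosphatase of the HAD superfamily, was at 13.33 to 13.71 in watered roots, 9.69 to 11.14 in droughted roots and 3.60 to 5.10 in leaves, with an organ difference of 8.03 ± 0.22 (SE, limma, 12 arrays, adjusted p = 1.1e-16) in B128. UP12_15002, matched to purple acid phosphatase 10, which in Arabidopsis is carried on the root surface under phosphate starvation, was as high in leaves, 12.37 to 13.83, as in watered roots, 12.58 to 13.30, and its droughted roots were at 9.83 to 10.44. UP12_4404, matched to glycerophosphodiester phosphodiesterase 1, had the same form, with root changes of -2.11 and -2.38. Of the 15, 14 were called lower and 1 higher in droughted roots of each line, while in leaves 0 were called lower and 1 higher in B47, and 1 lower and 1 higher in B128.

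**Figure D4:**
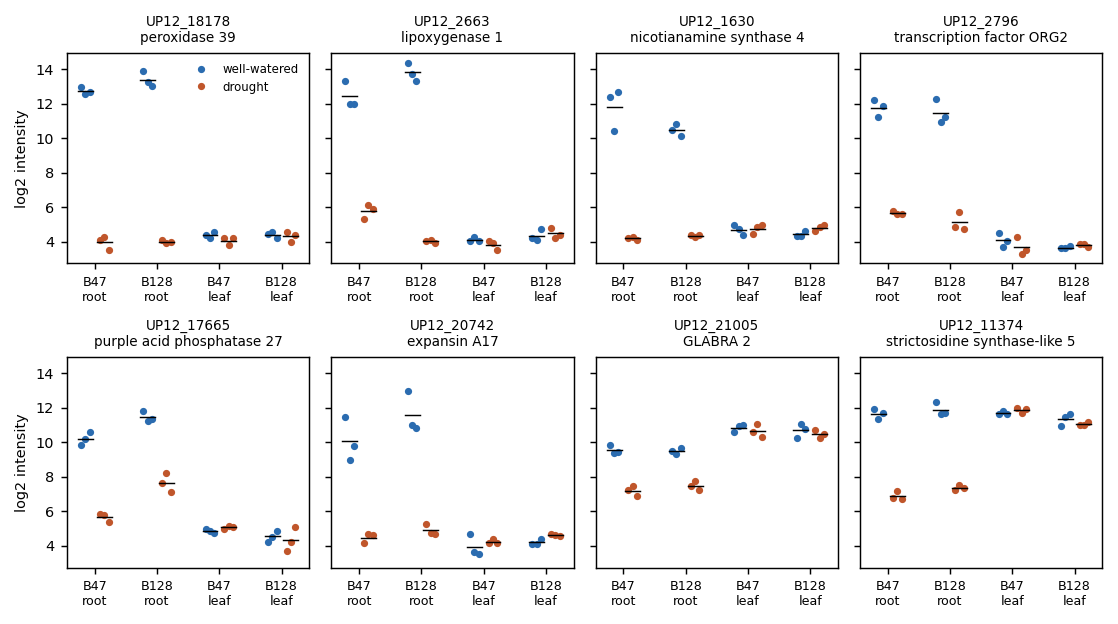
Log2 intensity (vertical) of 8 named unigenes on the 3 arrays of each group, by line and organ, with blue for well-watered, orange for drought and a short line at each group mean. Peroxidase 39, lipoxygenase 1 in B128 and nicotianamine synthase 4 lie in droughted roots at or near their leaf levels, whereas GLABRA 2 and strictosidine synthase-like 5 lie there below their leaf levels.

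Genes for wall loosening and pectin were on the list, and those for the secondary wall were not. Expansins loosen the wall during growth, and UP12_20742, matched to expansin A17, was at 11.45, 8.99 and 9.79 in well-watered B47 roots and at 12.96, 10.98 and 10.84 in those of B128. Droughted roots were at 4.15 to 5.28, and leaves at 3.50 to 4.71. In each line replicate 1 was the highest watered array by over 1 log2 unit. UP12_15171, matched to UDP-xylose synthase 4, which makes the donor for xylose units of wall polymers, changed by -2.79 and -1.88 and was at 10.26 to 11.91 in leaves. These were 2 of 47 described unigenes for wall loosening and pectin, beside 80 of all 2206 described unigenes. For the secondary wall and xylem 0 of the 41 were on the list. The leaf limit of the rule leaves out unigenes that change in leaves, so nothing is read from that count. Of the 47, 39 were called lower and 2 higher in B47 roots, and 37 and 2 in B128 roots. In leaves 26 of the 47 were called lower and 6 higher in B47, and 32 and 8 in B128. Of the 41, 37 were called lower and 0 higher in droughted roots of each line. In leaves 20 of the 41 were called lower and 2 higher in B47, and 27 and 2 in B128.

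Secreted and defence proteins were the largest named group, with 10 of 92 described unigenes. All 10 were called higher in roots than in leaves in both lines, beside 145 of all 200 members in each. The rule favours a high root level, so nothing is read from this count. UP12_15759, matched to MLP-like protein 43, was at 13.36 to 13.91 in watered B47 roots and 12.86 to 14.13 in those of B128, and under drought at 7.44 to 8.58 and 7.41 to 8.44, above leaf values of 4.58 to 5.93. The lipid-transfer proteins UP12_16255 and UP12_4251, small secreted proteins that bind lipids, changed by -5.24 and -4.54 in B47 and by -4.92 and -4.43 in B128. UP12_8735, matched to AIR3, an Arabidopsis subtilisin-like protease first known as an auxin-induced gene of lateral root formation, changed by -4.34 and -5.29. Of the 92, 54 were called lower in the roots of each line, and 14 were called higher in B47 and 12 in B128.

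Of 114 unigenes whose description holds a transcription factor term or a zinc finger, 4 were on the list. UP12_18746 is described only as a putative RING zinc finger protein, a domain better known from ubiquitin ligases, and it changed by -6.04 in B47 and -7.46 in B128. Its watered roots were at 10.24 to 11.24 and 11.24 to 12.69, and its droughted roots, at 4.16 to 5.19, were within the leaf range of 4.13 to 5.30. UP12_19996, matched to WRKY72, changed by -4.37 and -4.22. UP12_19864, matched to the homeodomain-leucine zipper protein HAT22, changed by -2.29 and -2.05. UP12_21005 was matched to GLABRA 2, which in Arabidopsis represses root hair fate in the epidermis and promotes trichomes on leaves. It stood at 9.85, 9.40 and 9.43 in watered B47 roots, 7.23, 7.47 and 6.86 in droughted ones and 10.26 to 11.08 over the leaf arrays of both lines. Its organ difference was -2.38 ± 0.16 in B47 (SE, limma, 12 arrays, adjusted p = 9.6e-11) and -2.12 ± 0.16 in B128 (adjusted p = 5.7e-10). Of the 114, 51 were called lower and 27 higher in B47 roots, and 52 and 28 in B128 roots.

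Transport, signalling and phenylpropanoid genes also had members on the list. UP12_14897, a transmembrane amino acid transporter, changed by -6.02 in B47 and -4.17 in B128, and UP12_27882, matched to NRT1/PTR FAMILY 3.1, by -2.27 and -3.00. These were 2 of 93 described transport unigenes, and no aquaporin was among them. UP12_27635, a putative protein kinase and the only 1 of 131 signalling unigenes, was as high in leaves, 10.55 to 11.91, as in watered roots, 10.97 to 11.79. UP12_6775, matched to UDP-glycosyltransferase 78D2, an enzyme that glucosylates flavonoids, was the only 1 of 53 phenylpropanoid unigenes, with changes of -4.23 and -3.04. Of the transport, signalling and phenylpropanoid unigenes, 46, 57 and 27 were called lower and 19, 19 and 4 higher in B47 roots. In B128 roots 46, 65 and 30 were called lower and 20, 16 and 4 higher.

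Several enzymes outside the groups stood near the top of the list. UP12_25789 and UP12_25790 carry neighbouring codes and are both described as glucosyltransferases, the second as UDP-glucosyl transferase 73B3, and their root changes were -5.76 and -5.05 in B47 and -5.89 and -5.52 in B128. UP12_3442, a flavin-containing monooxygenase, changed by -5.64 and -6.10, and UP12_14620, the glycolytic enzyme fructose-bisphosphate aldolase 6, by -5.28 and -6.44. UP12_11374, matched to strictosidine synthase-like 5, belongs to those with a high leaf level. It was at 11.95, 11.34 and 11.70 in watered B47 roots and 6.77, 7.17 and 6.71 in droughted ones, while its leaves stayed between 10.95 and 11.98 under both treatments. Among members that have a description, UP12_25904, a SOUL haem-binding protein, had the lowest organ difference, -5.96 ± 0.10 in B47 and -5.40 ± 0.10 in B128 (SE, limma, adjusted p = 8.6e-20 and 3.8e-19). Its roots nonetheless went from 8.15 to 8.33 down to 6.17 to 6.41 in B47. UP12_6073, an NAD(P)-linked oxidoreductase, was the next lowest of the described members, with -3.95 ± 0.16 and -3.01 ± 0.16 (adjusted p = 4e-14 and 2.5e-12). At the other end, UP12_10146, which has only a locus as its description, had organ differences of 7.56 and 8.06, and UP12_10317, described as nucleoid DNA-binding-like, had 7.68 and 7.12.

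The list is not 200 independent genes. There were 6 pairs of members with neighbouring codes, and 13 members shared a description with another.

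The lines were compared as B128 minus B47 over both treatments within 1 organ, a contrast that the rule did not use. In roots 7 of the 200 were called higher in B128, beside 1.14% of all unigenes, and 3 were called lower, beside 1.26%. In leaves 5 were called higher, beside 2.14%, and 4 lower, beside 2.16%. These are 3.5% and 1.5% of the members in roots, and 2.5% and 2% in leaves. The unigenes named for these contrasts were chosen after their values were seen, other than UP12_1537 and UP12_17665. Root arrays of both treatments are pooled here, and the lines did not separate completely on them for any of the 200, beside 2.22% of all unigenes. The members were chosen for large root changes, which widen the spread within each line, so nothing is read from this count.

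In roots the named unigenes higher in B128 were UP12_17665 (purple acid phosphatase 27), by 1.63 ± 0.22 (SE, limma, 12 arrays, adjusted p = 2.6e-05), and UP12_721, described only as a putative protein, by 1.76 ± 0.23 (adjusted p = 1.9e-05). UP12_721 measured 11.82, 11.76 and 12.36 in watered B47 roots and 13.25, 13.19 and 12.90 in those of B128, and 7.25 to 7.56 against 9.24 to 10.13 under drought. The lines did not overlap under either treatment. UP12_24476, which has no description, was also called higher in B128 roots, by 1.67 ± 0.27 (adjusted p = 3.4e-04). It differed in its form, since its watered roots were at 7.98, 6.48 and 6.37 in B47 and 11.08, 10.18 and 9.66 in B128, while droughted roots of both lines overlapped at 3.40 to 4.16. The 3 called lower in B128 roots were UP12_26999, UP12_18234 and UP12_27157, all with no description. UP12_26999 had the widest difference, -2.00 ± 0.29 (adjusted p = 9.9e-05).

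In leaves the 4 called lower in B128 were UP12_1537, UP12_10638, UP12_20304 and UP12_19407. UP12_1537, matched to a rice locus, was at 10.76 to 11.30 on the B47 leaf arrays and 9.15 to 9.73 on those of B128, a difference of -1.55 ± 0.16 (SE, limma, 12 arrays, adjusted p = 1.4e-06) with no overlap. The 5 called higher were UP12_1560, UP12_16032, UP12_27475, UP12_27476 and UP12_3514, of which UP12_3514 is described as a FAD-binding berberine family protein. UP12_27475 and UP12_27476 carry neighbouring codes and differed by 1.01 ± 0.18 and 1.06 ± 0.16 (adjusted p = 6.7e-04 and 8.4e-05).

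Whether the organ difference itself differed between the lines was tested as the line by organ term. It was called higher in B128 for 3 of the 200, beside 1.1% of all unigenes, and lower for 1, beside 0.808%. UP12_1537 had an organ difference of -0.60 in B47 and 1.55 in B128, so that the term was 2.15 ± 0.23 (SE, limma, 24 arrays, adjusted p = 1.3e-05). The term of UP12_17665 was 2.17 ± 0.30 (adjusted p = 2.7e-04), with organ differences of 2.95 in B47 and 5.12 in B128. UP12_25843 and UP12_27157, which have no description, had terms of 1.65 ± 0.32 (adjusted p = 0.0041) and -2.18 ± 0.42 (adjusted p = 0.0037). Leaf arrays were at 3.69 to 5.17 for UP12_17665 and at 3.92 to 4.66 for UP12_25843, at the low end of the scale. The line differences of these unigenes were 1.63 and 1.40 in roots and -0.53 and -0.24 in leaves, so their terms came mostly from roots.

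**Figure D5:**
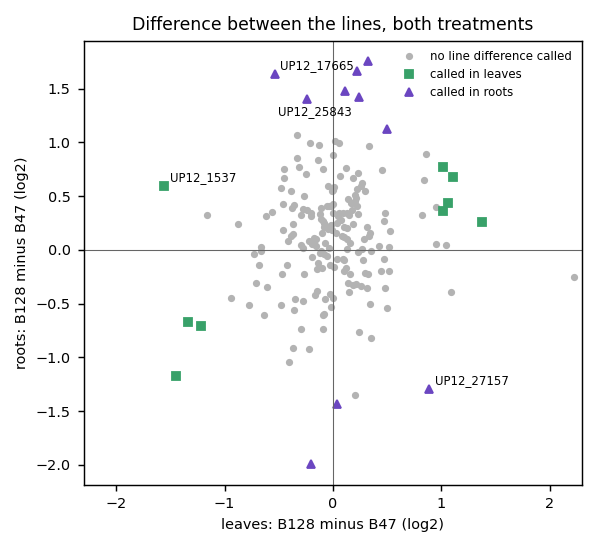
Difference between the lines, B128 minus B47 in log2 over both treatments, in leaves (horizontal) and roots (vertical) for each of the 200 unigenes. Triangles are the 10 called in roots, squares the 9 called in leaves, grey points neither, and the 4 labelled codes are those called for the line by organ term, with terms of 2.17, 1.65, 2.15 and -2.18.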

How the data were processed

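Cy3-labelled RNA of 24 samples was hybridised to custom NimbleGen arrays. The authors normalised the scans by quantiles and summarised probes by RMA (version not given in the sources used here), and deposited linear intensities for 29471 unigenes and 8 yeast control entries, from 4.52 upwards. They give no detection calls or background that were used here, so the number of arrays limits the precision.

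Intensities were taken to log2 with no offset. limma 3.58.1 in R 4.3.3 was fitted to all unigenes on 8 group means over 24 arrays (16 residual degrees of freedom), with Benjamini-Hochberg adjustment over all unigenes. A call required an FDR of 0.01 and a fold change of 2. Organ and line differences were tested, and drought changes were only described, since they chose the members. The fit was tested on simulated data before use.

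Members and the 12 gene lists were chosen with earlier results of these data known. Named unigenes were the first 20 described members, the first 4 of each list, and the 3 with the widest called rise and fall in each contrast whose arrays did not overlap. The line by organ term was taken with no such condition. Of the unigene codes 0 matched the RefSeq gene table. Alternatives were other offsets, filters, normalisations, weights and thresholds, and each array left out. The fold changes and p-values in the study's own tables were not used. Python 3.11.15 was used for the other steps.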

Additional observations from a re-analysis of the deposited data

Results flagged for a closer look

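The organ difference, root minus leaf, differed between the lines by limma's line by organ term for 4 of the 200 unigenes, which flagged them. The term, B128 minus B47, was 2.17 for UP12_17665 (purple acid phosphatase 27), 1.65 for UP12_25843, 2.15 for UP12_1537 and -2.18 for UP12_27157. Among the members called higher in B128 roots, UP12_17665, UP12_721, UP12_1890 and UP12_23707 separated from B47 under each treatment. All 3 arrays of each of their B128 root groups lay above those of B47. UP12_1537 differed mostly in leaves, by -1.55, and by 0.59 in roots. UP12_17665 and UP12_25843 differed mostly in roots, by 1.63 and 1.40, with leaves at the low end of the scale. No group had more than 3 arrays, so the test for a single outlying value in a group was not applied.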

How the results depend on the processing

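Counts of the 200 unigenes called were compared over the alternatives, with the cause of a shift not tested unless stated. Leaving out the 25% of unigenes with the lowest mean over all arrays kept only 71 of the 200 in the test. The leaf mean lay among the lowest 25% for 143 members. So did the droughted root mean for 126 members in B47 and 127 in B128. Of the 71, 20 were called higher in roots in each line, and 31 lower in B47 and 27 in B128. Their median organ difference was -0.81 in B47 and -0.47 in B128, opposite in sign to that of all 200. This filter also gave 0 higher and 0 lower in B128 roots, and 1 and 0 for the line by organ term. Over all unigenes kept it gave 184 and 212, and 251 and 143. limma's treat test against a fold of 2 called 0 in either direction for the line difference in roots, that in leaves and the line by organ term. At an unadjusted p under 0.05 in this test there were 5, 2 and 6. Over all unigenes it called 132 higher and 126 lower, 152 and 148, and 22 and 30. Array weights, whose estimation stopped before it converged, gave 20 higher and 11 lower in B128 roots and 17 and 8 for the line by organ term. Counts over all unigenes rose as well. In roots they went from 335 higher and 370 lower in the main fit to 634 and 634. For the term they went from 323 and 238 to 962 and 800. An FDR of 0.05 gave 5 lower in B128 roots, and 7 higher and 3 lower for the line by organ term. Over all unigenes it gave 438 lower in roots, and 629 higher and 492 lower for the term. Setting the yeast entries equal gave 4 higher in B128 roots and 2 higher in B128 leaves, beside 302 and 594 over all unigenes. An offset of 50 gave 1 higher in B128 leaves and 5 and 2 for the line by organ term. The counts over all unigenes were then 466, and 320 and 229. Quantiles within each organ gave 3 higher in B128 leaves, beside 603 over all unigenes against 630 in the main fit. Fitting only the arrays compared gave 3 higher in B128 roots and 2 lower in B128 leaves, beside 311 and 484 over all unigenes.

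Over 84 pairs of samples with the same replicate number, correlations of deviations ran from -0.40 to 0.57 (median -0.03). Over 168 pairs with other numbers they ran from -0.62 to 0.40 (median 0.01). These medians gave no sign of pairing. In well-watered roots, however, replicate 1 had the highest median level of the listed unigenes, at 11.67 for B128 and 11.29 for B47. It was over 1 log2 unit above both others for 32 of them in B128 and 16 in B47, and as far below for 2 and 11. A deviation shared by these arrays is not excluded. With the replicate number as a block, 1 was lower in B128 roots and 2 for the line by organ term, and no other count moved by over 1.5 times.

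Leaving out 1 array at a time gave 145 to 146 higher and 31 to 33 lower in roots for B47, and 144 to 146 and 27 to 30 for B128. It gave 5 to 8 higher and 1 to 4 lower in B128 roots, 2 to 8 and 3 to 5 in B128 leaves, and 3 to 5 and 1 to 3 for the line by organ term. The rule itself kept 167 to 196 of the 200 members without 1 array, 117 with the offset of 50, 71 with the low unigenes left out, 95 with a leaf limit of 0.3, and at least 141 in the other settings. The mean left-out root change was -3.46 in B47 with the offset, and -3.49 in B47 and -3.72 in B128 with the yeast entries equal, against -3.13 and -3.26. No named unigene reversed its direction. Of the settings for named unigenes called, 70 for the line difference in roots, 58 in leaves, 4 for the line by organ term and 0 for the organ differences lost the call.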
